A study of Mus musculus with 12 samples.

Results

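The serpin family of serine protease inhibitors was described in mouse liver with and without REV-ERBα. Of the 62 gene symbols in the count files that name a serpin of clades A to I, 32 had 10 or more reads in at least 3 of the 12 livers, and these 32 of 38926 symbols in all are the genes described here. They comprised 19 genes of clade A, 5 of clade B, 2 each of clades E and F, and *Serpinc1*, *Serpind1*, *Serping1* and *Serpinh1* as the single members of clades C, D, G and H. No clade I gene reached the read minimum. The 12 libraries were made from livers of mice aged 12 weeks on a mixed 129Ola/C57BL6 background, either wild type or carrying the *Rev-erbα* knockout in every cell of the body (*Rev-erbα*-/-, labelled Rev KO), without any further treatment. Livers were taken 8 h (ZT8, in the light phase) or 20 h (ZT20, in the dark phase) after lights on, with 3 replicates in each of the 4 groups, and the mice used were male. Each replicate is called a liver here, although no source states that they came from separate mice, so p-values measure only the spread between these libraries. All members passed the expression filter of the statistical fit, so none is missing from the comparisons. Just inside the read minimum lay *Serpinb1a*, with 10 or more reads in 9 livers. Just outside it lay *Serpini1* (2 livers, 3 to 15 reads) and *Serpine3* (1 liver, 2 to 10 reads).

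Most serpins inhibit a serine protease by offering it an exposed stretch, the reactive centre loop, as bait. When the protease cuts the loop, the serpin refolds and traps the enzyme in an inactive complex, so that each inhibitor molecule is used once. The liver secretes most serpins of the blood, among them the α1-antitrypsin genes (*Serpina1* copies), antithrombin (*Serpinc1*), heparin cofactor II (*Serpind1*), α2-antiplasmin (*Serpinf2*) and C1 inhibitor (*Serping1*). Some members do not inhibit proteases and act as hormone carriers, as do corticosteroid-binding globulin (*Serpina6*) and thyroxine-binding globulin (*Serpina7*), or as a chaperone of collagen (*Serpinh1*). Clade B serpins stay inside the cell.

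Several members are near-identical copies, and the stretch compared base by base here is the loop itself. All 18 clade A members other than the X-linked *Serpina7* lay in 1 cluster on chromosome 12 of mm10, between 103614786 and 104414329. The coding sequences of the 5 *Serpina1* copies were 96.3% to 98.5% identical. The 75 coding bases that begin at the loop's hinge are shown for these copies, since reads can be assigned to 1 copy only where the bases differ. They are written 5′ to 3′ in the sense of the gene from the GENCODE M21 transcripts, with capitals at the 18 positions that are not the same in all 5 copies. Each lies within 1 exon on the minus strand, at chr12:103853756-103853830 for *Serpina1a*, chr12:103728323-103728397 for *Serpina1b*, chr12:103895093-103895167 for *Serpina1c*, chr12:103763761-103763835 for *Serpina1d* and chr12:103947099-103947173 for *Serpina1e*.
Serpina1a: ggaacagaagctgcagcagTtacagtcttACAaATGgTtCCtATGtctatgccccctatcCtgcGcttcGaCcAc
Serpina1b: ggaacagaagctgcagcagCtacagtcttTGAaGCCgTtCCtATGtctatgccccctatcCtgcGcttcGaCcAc
Serpina1c: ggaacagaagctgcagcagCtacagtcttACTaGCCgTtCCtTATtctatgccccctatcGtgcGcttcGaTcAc
Serpina1d: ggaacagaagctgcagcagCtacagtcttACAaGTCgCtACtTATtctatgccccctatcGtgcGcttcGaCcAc
Serpina1e: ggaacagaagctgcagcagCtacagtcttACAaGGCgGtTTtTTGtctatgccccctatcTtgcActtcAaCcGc

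Within this stretch *Serpina1c* and *Serpina1d* differed at 5 bases, and *Serpina1e* differed from the other copies at 10 to 12 bases. Over the whole transcript, the share of 75-base windows (about the length of the reads) that also occurred in another gene was 69.6% for *Serpina1a*, 73.6% for *Serpina1c*, 37.1% for *Serpina1d*, 25.1% for *Serpina1b* and 20.3% for *Serpina1e*. Because only uniquely mapped reads were counted, the counts of *Serpina1a* and *Serpina1c* rest on the smallest unique part, and levels are not comparable between the copies.

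The *Serpina3* genes, the mouse relatives of α1-antichymotrypsin, diverged further. For the 4 members with the most reads, the same stretch was compared base by base from the hinge, with no gaps. It was not the same in all 4 at 46 of 75 positions, again in capitals. The letters TTCAAC lie closer to the hinge in *Serpina3c* than in *Serpina3k*. Some capitals can therefore come from a shift between the loops, and the 46 is not a count of base changes. The windows are chr12:104147313-104147387 on the minus strand for *Serpina3c* and, on the plus strand, chr12:104345269-104345343 for *Serpina3k*, chr12:104393769-104393843 for *Serpina3m* and chr12:104413448-104413522 for *Serpina3n*.
Serpina3c: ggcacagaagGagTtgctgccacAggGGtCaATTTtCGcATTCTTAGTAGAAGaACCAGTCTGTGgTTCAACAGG
Serpina3k: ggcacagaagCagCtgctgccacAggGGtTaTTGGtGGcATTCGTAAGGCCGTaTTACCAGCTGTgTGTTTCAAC
Serpina3m: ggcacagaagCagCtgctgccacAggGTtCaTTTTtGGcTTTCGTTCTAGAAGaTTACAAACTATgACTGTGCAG
Serpina3n: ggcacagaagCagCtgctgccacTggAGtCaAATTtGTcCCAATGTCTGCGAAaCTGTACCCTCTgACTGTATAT

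Pairs of these 4 genes were 82.7% to 91% identical over the coding sequence, and at most 9.65% of their windows were shared with another gene. Exons of *Serpina3k* and *Serpina3m* overlap in the annotation, so reads in the shared part could have been left uncounted. In total, 9 members had more than 10% of their windows in common with another gene and 14 had none. Beside the *Serpina1* copies, these 9 were *Serpinc1* (58.6%, through the opposite-strand gene *Zbtb37*), *Serpina11* (43.4%, *Gm28577*), *Serpinb6a* (15.2%, an opposite-strand gene) and *Serpina3h* (12.8%), which the annotation lists as a transcribed pseudogene. Strand was ignored in the counting, so reads in the overlap of *Serpinc1* and *Zbtb37* could likewise have been left uncounted. In the annotation, exons of *Gm28577* overlap those of *Serpina11* and *Serpina9* on the same strand, with the same limit.

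The serpins spanned more than 4 orders of magnitude. Together they took 2.20% to 3.62% of all counted reads of a liver, and 3 genes, *Serpina3k*, *Serpina1e* and *Serpina1b*, held 58.6% of the serpin reads. Per kilobase of exon, the median level over the 12 livers was highest for *Serpina3k*, at 4169 CPM per kb (CPM, read counts scaled to a common library size), and the *Serpina1* copies, which cannot be ranked among themselves because of their shared bases, included *Serpina1e* at 2984, *Serpina1b* at 1489 and *Serpina1c* at 1312. The plasma inhibitors of the other clades formed a second tier, with *Serping1* at 353 CPM per kb, *Serpinf2* at 349, *Serpind1* at 305, *Serpinf1*, the pigment epithelium-derived factor, at 279 and *Serpinc1* at 258. The value of *Serpinc1* was divided by an exon union of 8546 bases, against 4970 bases in the annotated transcript examined here, so its place in this tier depends on the length chosen. Clade B genes were low, from 2.84 CPM per kb for *Serpinb6a* to 0.316 for *Serpinb1a*. The ranges of neighbours within these tiers overlapped, as the plot of levels in each liver shows.

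**Figure D1:**
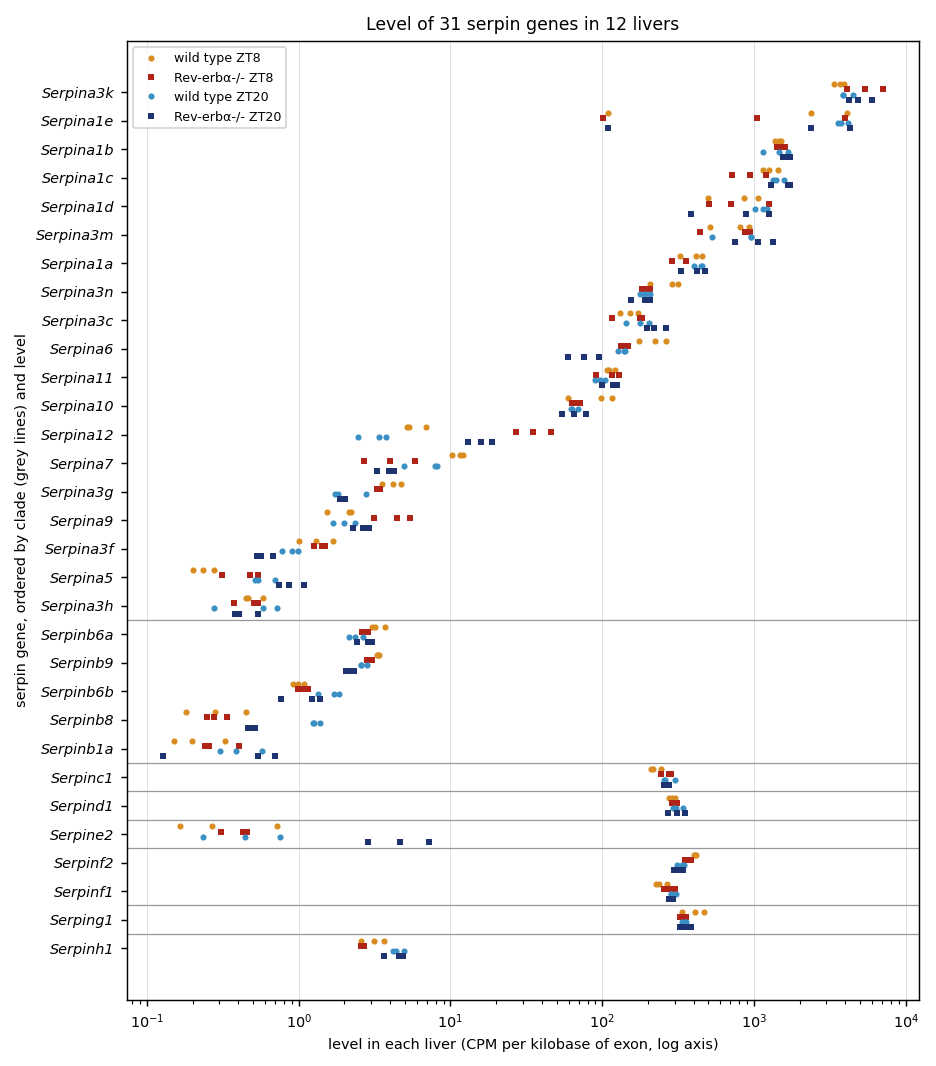
Level of 31 of the 32 serpin genes in each of the 12 livers, in CPM per kilobase of annotated exon on a log axis, with genes ordered by clade and level and each point 1 liver (circles wild type, squares *Rev-erbα*-/-). *Serpina3k* was the highest by median at 4169 CPM per kb, and *Serpina1e* was split within 3 of the 4 groups.

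The 12 libraries held 17641809 to 26060192 reads on genes. The 7 hepatocyte markers were present in every liver, with a summed level of 59362 to 110247 CPM. Reads on *Nr1d1*, which encodes REV-ERBα, stood at 100.1 ± 26.9 CPM in wild-type and 71.8 ± 8.78 CPM in *Rev-erbα*-/- livers at ZT8 (SD, n = 3 each, edgeR adjusted p = 0.143), and counts per symbol do not show which exons they came from, so this gene does not check the genotype labels. In wild-type livers at ZT8, the acute-phase gene *Saa1* was at 60.8 CPM in replicate 1 but at 4972 and 6489 CPM in replicates 2 and 3, against 21.2 to 96.8 CPM in the 9 livers of the other groups. Calls that rest on wild-type livers at ZT8 and were lost without these 2 livers are therefore given with that value too, an alternative chosen after the data were seen, in which the single remaining liver is assumed to vary like the other groups.

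At ZT8, 5 serpins differed between the genotypes, with an adjusted p below 0.05 in edgeR's quasi-likelihood test over 14488 genes. *Serpina12* and *Serpina9* were higher and *Serpina7*, *Serpina6* and *Serpina3n* lower in *Rev-erbα*-/- livers, and all 5 belong to clade A. This is 15.6% of the members, beside 8.45% of all genes. At ZT20, 4 members differed, 12.5% beside 3.63% of all genes: *Serpina12* and *Serpine2* were higher and *Serpina6* and *Serpinb8* lower. Beside the calls in 1 direction, 4.40% of all genes were higher and 4.04% lower at ZT8, and 2.09% and 1.54% at ZT20. The median log2 difference over the members was -0.06 at ZT8 and -0.03 at ZT20, against 0.00 over all genes tested at both times. The 3 livers of one genotype did not overlap those of the other for 11 members at ZT8 and 8 at ZT20, against 25.6% and 22.5% of all genes. Bulk counts cannot tell fewer cells of a type from less RNA per cell.

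**Figure D2:**
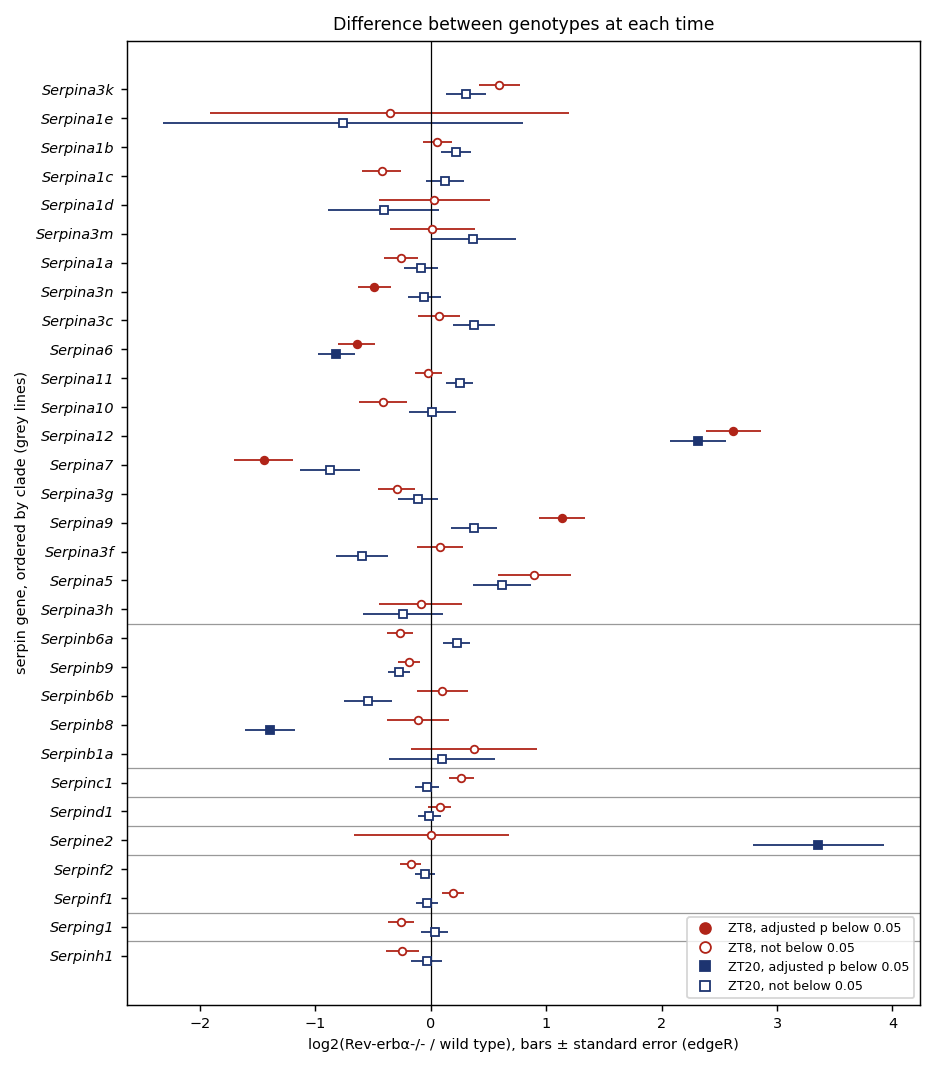
Log2 difference between *Rev-erbα*-/- and wild-type livers for 31 serpins at ZT8 (red circles) and ZT20 (blue squares), with bars of ± 1 standard error from edgeR and filled points where the adjusted p was below 0.05. *Serpina12* lies far to the right at both times (2.62 and 2.31), and *Serpine2* does so at ZT20 (3.36).

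*Serpina12* encodes vaspin, an inhibitor of kallikrein 7 that was first described in visceral fat. At ZT8 it was at 25.6, 19.7 and 19.2 CPM in wild-type livers and at 99.9, 129 and 169.6 CPM in *Rev-erbα*-/- livers. At ZT20 it was at 13.8, 12.5 and 9.08 CPM in wild-type and 69.4, 58.2 and 48.2 CPM in *Rev-erbα*-/- livers. Every *Rev-erbα*-/- liver lay above every wild-type liver at either time. The difference was 6.16-fold at ZT8 (log2 2.62, standard error 0.24, adjusted p = 0.000185, edgeR) and 4.97-fold at ZT20 (log2 2.31, standard error 0.24, adjusted p = 0.000676), and it passed the threshold in all alternative fits run at both times. The defining markers of adipocytes were at or near 0 in all livers (at most 0.178 CPM summed), with *Lep* at 0 in all 12. The gene lies on chromosome 12 from 104028769 to 104044443 on the minus strand. The 250 bases before its RefSeq start (GRCm38.p6, chr12:104044444-104044693, minus strand) are printed because this member was called in the same direction at both times with the largest fold, and they hold none of the motifs described further on.
Serpina12: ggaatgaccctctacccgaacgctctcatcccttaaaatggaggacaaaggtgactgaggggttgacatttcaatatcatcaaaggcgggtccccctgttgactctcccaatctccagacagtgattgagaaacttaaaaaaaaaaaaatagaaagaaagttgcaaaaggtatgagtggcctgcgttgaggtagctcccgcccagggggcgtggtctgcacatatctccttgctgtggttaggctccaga

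*Serpina9*, also called centerin, is known from germinal centre B cells and lies in the same cluster on chromosome 12 (103994743 to 104013755, minus strand). It was at 5.65, 7.92 and 8.19 CPM in wild-type and at 16.4, 19.8 and 11.5 CPM in *Rev-erbα*-/- livers at ZT8. The genotypes did not overlap, and the difference was 2.20-fold (log2 1.14, standard error 0.20, adjusted p = 0.00363, edgeR), passing the threshold in all alternatives run. At ZT20 the means were 7.39 ± 1.27 and 9.59 ± 1.19 CPM (SD, n = 3 each), and the log2 difference of 0.37 did not pass it (adjusted p = 0.436). Whether the effect differed between times was tested as an interaction, with an adjusted p of 0.151. The summed lymphocyte markers were at 1.79 to 2.55 CPM in wild-type and 1.42 to 2.70 CPM in *Rev-erbα*-/- livers at ZT8.

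Both hormone carriers of clade A were lower without REV-ERBα at ZT8. *Serpina7*, the thyroxine-binding globulin on chromosome X (139079257 to 139085236, minus strand), was at 29.8, 25.2 and 28.2 CPM in wild-type and at 14.2, 9.72 and 6.56 CPM in *Rev-erbα*-/- livers at ZT8. All wild-type livers lay above all *Rev-erbα*-/- livers, with a log2 difference of -1.45 (standard error 0.26, adjusted p = 0.00766, edgeR), 2.73-fold lower. At ZT20 the values were 12.2, 19.9 and 19.4 CPM in wild-type and 8.06, 9.62 and 10.4 CPM in *Rev-erbα*-/- livers. Here too the groups did not overlap, but the log2 difference of -0.87 did not pass the threshold (adjusted p = 0.118), and passed it in DESeq2 (adjusted p = 0.00634) and without replicate 1 or 3 of the *Rev-erbα*-/- ZT8 livers (adjusted p = 0.037 and 0.0358) or replicate 1 of the wild-type ZT20 livers (0.0492).

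*Serpina6* encodes corticosteroid-binding globulin, which carries glucocorticoids in the blood (chromosome 12, 103646630 to 103657212, minus strand). It was at 309.7, 391 and 461 CPM in wild-type and at 234, 251 and 259 CPM in *Rev-erbα*-/- livers at ZT8. At ZT20 it was at 248, 246 and 224 CPM in wild-type and at 105, 134 and 168 CPM in *Rev-erbα*-/- livers. *Rev-erbα*-/- livers were the lower ones at either time without overlap, by a log2 difference of -0.64 at ZT8 (standard error 0.16, adjusted p = 0.0275, edgeR) and -0.82 at ZT20 (standard error 0.16, adjusted p = 0.0131). The ZT8 call was lost when replicate 2 or 3 of the wild-type or any replicate of the *Rev-erbα*-/- livers at ZT8 was left out (adjusted p = 0.0582 to 0.103), and the ZT20 call without wild-type replicate 1 (adjusted p = 0.0554) or 2 (0.0597) or *Rev-erbα*-/- replicate 2 (0.0595) at ZT20. With no filter on low counts, the ZT8 call was also lost (adjusted p = 0.0597).

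*Serpina3n*, an inhibitor known to rise in the acute-phase response (chromosome 12, 104406729 to 104414329, plus strand), was at 423, 593 and 654 CPM in wild-type and at 375, 387 and 426 CPM in *Rev-erbα*-/- livers at ZT8. The groups overlapped, because wild-type replicate 1 lay among the *Rev-erbα*-/- livers, and the log2 difference was -0.49 (standard error 0.14, adjusted p = 0.0484, edgeR). The 2 higher wild-type livers were those with high *Saa1*. The call was lost in 9 of the 12 fits that left out 1 liver, with an adjusted p of up to 0.187 without wild-type replicate 3 at ZT8, and held without wild-type replicate 1 at ZT8 or *Rev-erbα*-/- replicate 1 or 3 at ZT20. It was also lost with the 6 ZT8 livers fitted alone (adjusted p = 0.0939). At ZT20 the groups stood at 396 ± 27.1 and 380.3 ± 55.4 CPM (SD, n = 3 each).

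Other members were also higher in the 2 wild-type ZT8 livers with high *Saa1* than in replicate 1. *Serpina10*, the protein Z-dependent inhibitor of factor X, was at 208, 342 and 404 CPM in replicates 1, 2 and 3, and *Serping1* at 786, 956 and 1090.4 CPM. *Serpina6* followed the same order, as given above. Others were lower in those 2 livers than in replicate 1, among them *Serpinf1* at 633, 557 and 532 CPM in replicates 1, 2 and 3. *Serpina12* was also lower in them, as given above. Of the 27 acute-phase genes listed, 10 were lower in *Rev-erbα*-/- livers at ZT8 (37.0%, beside 4.04% of all genes, median log2 difference -0.62). The summed Kupffer cell markers were at 249, 330 and 399 CPM in wild-type replicates 1, 2 and 3. Without both livers, 2 serpins were called at ZT8 (2.29% of all genes), *Serpina12* (log2 2.37, adjusted p = 0.0235) and *Serpina9* (log2 1.48, adjusted p = 0.0197). *Serpina3n* moved to -0.10 (adjusted p = 0.849), *Serpina6* to -0.32 (adjusted p = 0.522) and *Serpina7* to -1.56 (adjusted p = 0.0862). The part of the acute-phase state in these differences was not tested further.

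*Serpine2* (glia-derived nexin, an inhibitor of thrombin and plasminogen activators) showed the largest fold difference of the family between genotypes. The gene lies on chromosome 1 from 79794197 to 79861180 on the minus strand. At ZT20 it was at 1.95, 3.67 and 6.26 CPM in wild-type and at 23.9, 38.6 and 60.1 CPM in *Rev-erbα*-/- livers. At ZT8 it was at 5.93, 2.24 and 1.37 CPM in wild-type and at 2.54, 3.78 and 3.57 CPM in *Rev-erbα*-/- livers. The *Rev-erbα*-/- livers at ZT20 thus stood apart from the 9 other livers, 10.3-fold above wild type at the same time (log2 3.36, standard error 0.57, adjusted p = 0.0162, edgeR), whereas the fitted difference at ZT8 was 0.00 (standard error 0.67, adjusted p = 0.998). As an interaction with time, the genotype difference was -3.36 on the log2 scale, with an adjusted p of 0.0636, and DESeq2 gave 0.00442. The ZT20 call was lost with the 6 ZT20 livers fitted alone (adjusted p = 0.0609), without wild-type replicate 1 (0.06) or 2 (0.0944) at ZT20, or without *Rev-erbα*-/- replicate 2 at ZT20 (0.0516). The summed stellate cell and fibroblast markers were at 220 to 283 CPM in wild-type and 243 to 304 CPM in *Rev-erbα*-/- livers at ZT20.

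*Serpinb8*, an intracellular inhibitor of furin-type proteases, was lower in *Rev-erbα*-/- livers at ZT20. In wild-type livers it was at 2.15, 1.35 and 0.864 CPM at ZT8 and at 6.00, 6.59 and 6.04 CPM at ZT20. In *Rev-erbα*-/- livers it was at 1.19, 1.61 and 1.32 CPM at ZT8 and at 2.22, 2.45 and 2.40 CPM at ZT20. The genotypes overlapped at ZT8 (log2 -0.11, standard error 0.27, adjusted p = 0.849, edgeR) and were apart at ZT20 (log2 -1.39, standard error 0.22, adjusted p = 0.00151), and the ZT20 difference passed the threshold in all alternatives run. The gene (chromosome 1, 107590006 to 107610484, plus strand) had 17 to 149 reads per liver. The 250 bases before its start (GRCm38.p6, chr1:107589756-107590005, plus strand) are shown with the only match among the motifs searched in capitals.
Serpinb8: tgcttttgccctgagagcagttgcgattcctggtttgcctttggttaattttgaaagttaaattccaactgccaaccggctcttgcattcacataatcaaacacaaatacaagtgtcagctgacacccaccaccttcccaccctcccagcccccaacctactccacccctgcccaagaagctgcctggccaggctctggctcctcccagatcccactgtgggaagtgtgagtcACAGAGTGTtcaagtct

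**Figure D3:**
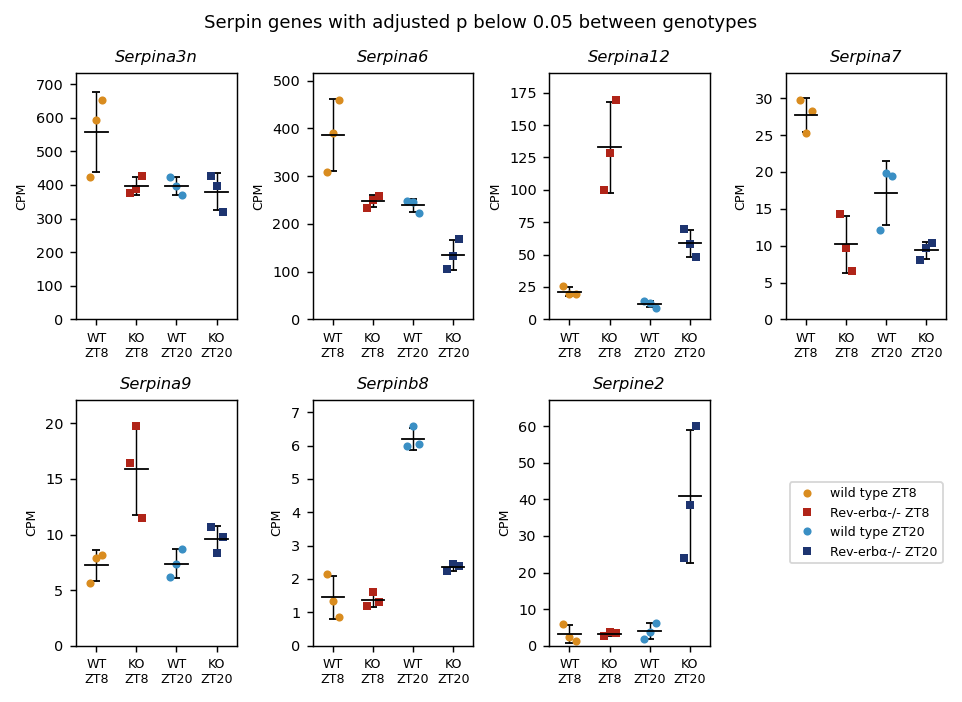
Level in each liver, in CPM on linear axes from 0, of the 7 serpins that differed between genotypes at ZT8 or ZT20 (WT, wild type, KO, *Rev-erbα*-/-), with the mean as a line and ± SD as a bar (n = 3). *Serpina12* was higher in every KO liver at both times, *Serpine2* was high only in the KO livers at ZT20, at 23.9 to 60.1 CPM, and *Serpinb8* was high in the wild-type livers at ZT20, at 6.00 to 6.59 CPM.

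Among the inhibitors of coagulation, fibrinolysis and complement, *Serpinc1*, *Serpind1*, *Serpinf2*, *Serping1*, *Serpina5* and *Serpina10* did not pass the threshold between genotypes at either time. Antithrombin (*Serpinc1*) was at 2086, 1835 and 1783 CPM in wild-type and at 2092, 2340.2 and 2413 CPM in *Rev-erbα*-/- livers at ZT8. These groups were just apart, with a log2 difference of 0.26 (standard error 0.11, adjusted p = 0.152, edgeR), and DESeq2 gave an adjusted p of 0.047. The 2 lower wild-type livers were those with high *Saa1*, and replicate 1 lay just below the lowest *Rev-erbα*-/- liver. Over the alternatives run, the log2 difference ranged from 0.13 to 0.33. Heparin cofactor II (*Serpind1*) was at 661, 608 and 628 CPM in wild-type and at 631, 686 and 684 CPM in *Rev-erbα*-/- livers at ZT8, with overlap. *Serpind1* had a log2 difference of 0.08 at ZT8 and -0.01 at ZT20 (standard error 0.10 each), *Serpinf2* of -0.18 and -0.05 (standard error 0.09 each), and *Serping1* of -0.26 and 0.03 (standard error 0.11 each). *Serpinf1* had 0.19 and -0.03 (standard error 0.09 each, adjusted p = 0.24 and 0.933). *Serpina5*, the protein C inhibitor, was at 0.438, 0.598 and 0.508 CPM in wild-type and at 0.675, 1.17 and 1.03 CPM in *Rev-erbα*-/- livers at ZT8, 10 to 21 reads each. These groups did not overlap, and the log2 difference of 0.90 had an adjusted p of 0.0957. At ZT20 the means were 1.26 ± 0.21 and 1.94 ± 0.38 CPM (SD, n = 3 each), again without overlap (log2 0.61, adjusted p = 0.242, edgeR).

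*Serpina3k*, also known as contrapsin and the most abundant serpin here, was at 6920.2, 7628 and 8052 CPM in wild-type and at 8453, 11120.4 and 14531 CPM in *Rev-erbα*-/- livers at ZT8. The groups did not overlap, and the log2 difference of 0.59 (standard error 0.18) had an adjusted p of 0.0511 in edgeR and 0.00705 in DESeq2. It also passed the threshold without *Rev-erbα*-/- replicate 1 at ZT8 (log2 0.76, adjusted p = 0.0139) or without *Rev-erbα*-/- replicate 1 (0.0383) or 3 (0.0426) at ZT20. The summed level of the *Serpina3* members was 8526 to 10680 CPM in wild-type and 10746 to 15987 CPM in *Rev-erbα*-/- livers at ZT8, and *Serpina3k* made up 75.4% to 90.9% of their reads. Of the others, *Serpina3m* had a log2 difference of 0.01 (standard error 0.37) and *Serpina3c* of 0.07 (standard error 0.18).

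The *Serpina1* copies did not differ between genotypes in this test, but *Serpina1e* varied widely among livers of the same group. It was at 177, 3827 and 6637 CPM in wild-type replicates 1, 2 and 3 at ZT8, and at 163, 1698 and 6441 CPM in the *Rev-erbα*-/- replicates. At ZT20 it was at 5804, 6088 and 6716 CPM in wild-type and at 6957, 3847 and 175 CPM in *Rev-erbα*-/- livers. In each group but wild type at ZT20, 1 liver therefore lay at only 163 to 177 CPM. In those 3 livers *Serpina1e* gave 2.38% to 2.75% of the *Serpina1* reads, against 20.2% to 49.6% in the other 9. *Serpina1d* was lowest in the same livers of their groups, at 698, 707 and 535 CPM, while *Serpina1b* ranged only from 2765 to 4142 CPM over all 12.

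Summed over the 5 copies, the *Serpina1* level was 6747, 10971 and 14174 CPM in wild-type and 5930, 8407 and 14009 CPM in *Rev-erbα*-/- livers at ZT8. Without *Serpina1e*, the sum of the other 4 was 6569 to 7537 CPM and 5767 to 7568 CPM at ZT8, a narrower range than that of the full sum. The standard error of the *Serpina1e* genotype difference was 1.55 on the log2 scale at ZT8, which left even large differences undetectable for it. The part of read assignment between these close copies in the pattern was not tested, and which strain's alleles each liver carried is not given in the sources used here.

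**Figure D4:**
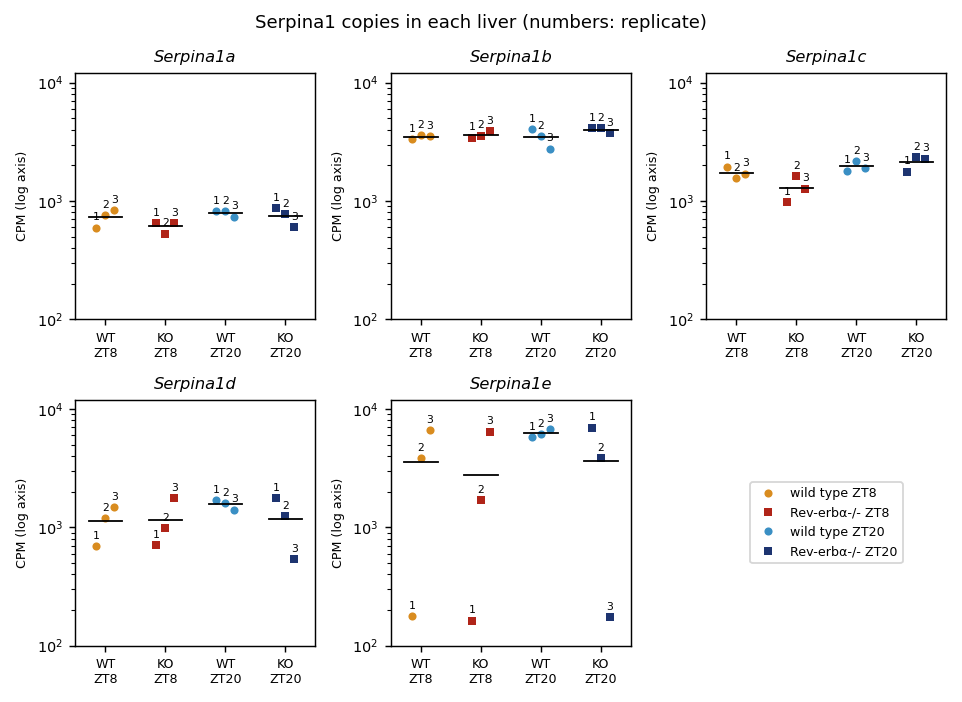
Level of the 5 *Serpina1* copies in each liver, in CPM on a log axis, with the replicate number above each point and the mean as a line (WT, wild type, KO, *Rev-erbα*-/-). *Serpina1e* was at 163 to 177 CPM in 3 livers and at 1698 to 6957 CPM in the other 9, while *Serpina1b* stayed between 2765 and 4142 CPM.

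More serpins were called between the times than between the genotypes, as were more of all genes. In wild-type livers, 12 of the 32 members (37.5%, beside 27.7% of all genes) differed between ZT8 and ZT20, with 4 higher and 8 lower at ZT20 (13.8% and 13.9% of all genes). In *Rev-erbα*-/- livers, 12 members also differed, beside 17.5% of all genes, with 5 higher and 7 lower (8.79% and 8.67% of all genes). In both genotypes 8 members were called, in each case in the same direction, with 5 lower and 3 higher at ZT20. The groups did not overlap for 17 members in wild type and 14 in *Rev-erbα*-/-, against 42.3% and 35.0% of all genes. Without the 2 wild-type ZT8 livers with high *Saa1*, 5 of the members were called in wild type (11.9% of all genes), among them *Serpinb8*, *Serpina5* and *Serpinh1* as higher and *Serpina3g* as lower at ZT20.

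**Figure D5:**
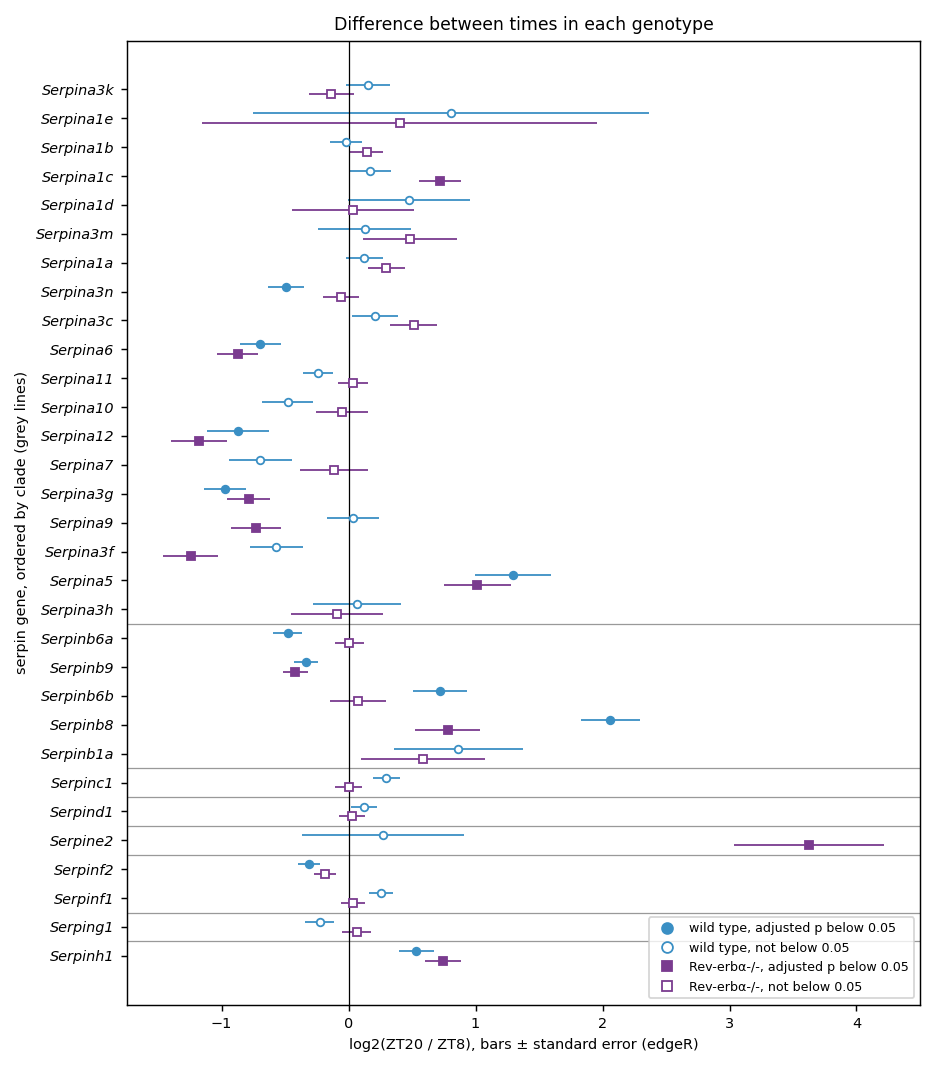
Log2 difference between ZT20 and ZT8 for 31 serpins in wild-type (blue circles) and *Rev-erbα*-/- livers (purple squares), with bars of ± 1 standard error from edgeR and filled points where the adjusted p was below 0.05. *Serpinb8* had the highest value in wild type (2.06) and *Serpine2* in *Rev-erbα*-/- (3.63).

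Among the members lower at ZT20 in both genotypes, *Serpina6* was lower at ZT20 by log2 differences of -0.69 and -0.87 (adjusted p = 0.0063 and 0.00286, edgeR), so the *Rev-erbα*-/- livers at ZT20 held the lowest level of corticosteroid-binding globulin transcript of the 4 groups, 135 ± 31.7 CPM (SD, n = 3). Without the 2 wild-type ZT8 livers with high *Saa1*, its wild-type difference was -0.38 and no longer called (adjusted p = 0.241). *Serpina12* was lower by -0.87 and -1.18 (adjusted p = 0.0255 and 0.00613). The wild-type call for it was lost without replicate 1 at ZT8 (adjusted p = 0.0808) or replicate 2 (0.059) or 3 (0.0704) at ZT20, with no filter on low counts (0.0559), and without both livers with high *Saa1* (log2 -1.12, adjusted p = 0.0856).

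*Serpina3g* and *Serpinb9* were also lower at ZT20 in both genotypes. *Serpina3g*, an intracellular inhibitor of cathepsins known from lymphoid cells, was at 7.48, 8.82 and 9.96 CPM at ZT8 and 3.63, 3.85 and 5.86 CPM at ZT20 in wild-type livers, a log2 difference of -0.97 (adjusted p = 0.000499, edgeR) against -0.78 in *Rev-erbα*-/- livers (adjusted p = 0.00515). *Serpinb9*, the inhibitor of granzyme B, was at 11.9, 11.5 and 11.6 CPM at ZT8 and 8.98, 8.98 and 9.84 CPM at ZT20 in wild-type livers. Its log2 differences of -0.33 and -0.42 (adjusted p = 0.0176 and 0.0082) were small but without overlap, and the wild-type call was lost without replicate 1 (adjusted p = 0.062) or 2 (0.07) at ZT20 or without both livers with high *Saa1* (0.118). The summed lymphocyte markers went from 1.79 to 2.55 CPM at ZT8 to 2.87 to 3.12 CPM at ZT20 in wild-type livers.

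The members higher at ZT20 in both genotypes were *Serpinb8*, *Serpina5* and *Serpinh1*. *Serpinb8* rose by log2 2.06 in wild-type (standard error 0.23, adjusted p = 1.17e-05, edgeR) and 0.78 in *Rev-erbα*-/- livers (standard error 0.25, adjusted p = 0.0454), where the call was lost in 10 of 12 fits that left out 1 liver, with an adjusted p of up to 0.132 without *Rev-erbα*-/- replicate 1 at ZT8, and held without wild-type replicate 1 or 3 at ZT8. *Serpina5* rose by 1.30 and 1.02 (adjusted p = 0.00459 and 0.0151), from 10 to 12 reads per liver at ZT8 to 24 to 34 at ZT20 in wild type. The *Rev-erbα*-/- call was lost without replicate 1 at ZT8 (adjusted p = 0.0631) or at ZT20 (0.0652).

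*Serpinh1* encodes HSP47, the collagen chaperone of the endoplasmic reticulum, whose gene belongs to the heat-shock programme. It was at 6.29, 7.62 and 8.90 CPM at ZT8 and 10.3, 10.7 and 12.0 CPM at ZT20 in wild-type livers, and at 6.28, 6.61 and 6.27 CPM and 11.2, 11.9 and 8.94 CPM in *Rev-erbα*-/- livers. All ZT20 livers lay above all ZT8 livers of the same genotype, with log2 differences of 0.53 (adjusted p = 0.0096, edgeR) and 0.74 (adjusted p = 0.00222), and both calls held in all alternatives run. Of 17 heat-shock chaperones tested, 10 were higher at ZT20 in wild-type livers (58.8%, beside 13.8% of all genes). In *Rev-erbα*-/- livers, 7 were higher and 3 lower, beside 8.79% and 8.67% of all genes. The list medians of the log2 difference were 0.49 in wild-type and 0.28 in *Rev-erbα*-/- livers, against 0.00 and 0.01 over all genes. *Hsp90aa1* rose by 1.08 and 1.25 on this log2 scale, whereas *Hspa1b* fell by 1.29 in *Rev-erbα*-/- livers (adjusted p = 0.00252). Of 11 collagens tested, the clients of this chaperone, 1 passed the test between the times, *Col4a2*, which was lower at ZT20 in wild type (log2 -0.56, adjusted p = 0.0301). That is 9.09% of the collagens in wild type, beside 27.7% of all genes, and none in *Rev-erbα*-/- livers, beside 17.5%.

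In wild type alone, 4 members were called with time, which does not show that the genotypes differed. *Serpinb6b* was higher, and *Serpina3n*, *Serpinb6a* and *Serpinf2* were lower at ZT20. In *Rev-erbα*-/- livers the log2 differences were 0.08 for *Serpinb6b*, -0.06 for *Serpina3n* and -0.18 for *Serpinf2*. The interaction had an adjusted p of 0.262, 0.255 and 0.625 for these 3 (edgeR). *Serpinf2*, which inhibits plasmin, was at 953, 941 and 968 CPM at ZT8 and 804, 725 and 777 CPM at ZT20, a log2 difference of -0.31 (standard error 0.09, adjusted p = 0.0156, edgeR). That call was lost without replicate 2 at ZT20 (adjusted p = 0.0846) or without both livers with high *Saa1* (log2 -0.32, adjusted p = 0.11). *Serpinb6a*, an inhibitor of cathepsin G, was at 17.3, 16.5 and 20.03 CPM at ZT8 and 11.5, 14.3 and 12.7 CPM at ZT20 in wild-type livers, without overlap. It fell by 0.48 on the log2 scale (adjusted p = 0.00517, and 0.0853 without both livers with high *Saa1*) against a log2 difference of 0.01 in *Rev-erbα*-/- livers, with an interaction at an adjusted p of 0.0909. *Serpinb6b* was at 2.07, 2.24 and 2.44 CPM at ZT8 and 3.02, 4.16 and 3.89 CPM at ZT20 in wild-type livers, again without overlap. It rose by 0.72 (adjusted p = 0.0204), and its call was lost without both livers with high *Saa1* (adjusted p = 0.116), without wild-type replicate 1 (adjusted p = 0.0589) or 2 (0.0602) at ZT8, or 2 (0.0885) or 3 (0.0609) at ZT20. *Serpina3n* fell by 0.49 (adjusted p = 0.0195) and, without the 2 livers with high *Saa1*, by 0.10 (adjusted p = 0.741). Leaving out 1 of replicates 2 or 3 at either time also ended its call (adjusted p = 0.0606 to 0.0917).

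In *Rev-erbα*-/- livers alone, 4 others were called with time, which does not show that the genotypes differed. *Serpine2* rose 12.4-fold (log2 3.63, standard error 0.59, adjusted p = 0.00414, edgeR), and in wild-type livers the value was 0.27 (adjusted p = 0.796). *Serpina1c* rose from 978, 1633 and 1273 CPM to 1767, 2345 and 2283 CPM (log2 0.72, adjusted p = 0.00843), with the limit that 73.6% of its windows occur in another gene. *Serpina3f* fell from 2.91, 3.28 and 3.43 CPM to 1.22, 1.29 and 1.56 CPM (log2 -1.24, adjusted p = 0.00122), and its wild-type difference of -0.57 had an adjusted p of 0.054. *Serpina9* fell by 0.73 (adjusted p = 0.0211), and that call was lost without *Rev-erbα*-/- replicate 1 (0.0636) or 2 (0.0934) at ZT8, or 2 (0.0917) or 3 (0.0559) at ZT20.

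The test of whether the genotype difference changed between the times passed the threshold for 1 member, *Serpinb8*, which is 3.12% of the members beside 5.88% of all genes. Its genotype difference was -0.11 at ZT8 and -1.39 at ZT20, and the value at ZT8 minus that at ZT20 was 1.28 on the log2 scale (standard error 0.35, adjusted p = 0.0414, edgeR). This call was lost in 11 of the 12 fits that left out 1 liver, with an adjusted p of up to 0.126 without *Rev-erbα*-/- replicate 2 at ZT8 and a log2 value of 1.03 to 1.36 in those 11, and held without wild-type replicate 1 at ZT8 (log2 1.69, adjusted p = 0.00223). Without both wild-type ZT8 livers with high *Saa1* it was 0.74 (adjusted p = 0.242). For *Serpina7*, *Serpina3n* and *Serpina6*, called at ZT8, the same test gave adjusted p values of 0.434, 0.255 and 0.72, so these genotype differences were not shown to depend on time.

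In no comparison were 15 of the 32 members called. Beside *Serpina1a*, *Serpina1b*, *Serpina1d*, *Serpina1e*, *Serpina3c*, *Serpina3k*, *Serpina3m*, *Serpina10*, *Serpinc1*, *Serpind1*, *Serpinf1* and *Serping1*, these were *Serpina11*, with log2 genotype differences of -0.02 and 0.25 (adjusted p = 0.93 and 0.348, edgeR), and the scarce *Serpina3h* and *Serpinb1a*, at 0.398 to 1.03 and 0.294 to 1.60 CPM. *Serpinb1a*, an inhibitor of neutrophil elastase, had the summed neutrophil markers beside it at 0.415 to 7.78 CPM over the 12 livers. The log2 genotype differences of the 15 ran from -0.76 for *Serpina1e* at ZT20 to 0.59 for *Serpina3k* at ZT8.

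A fixed list of proteases that serpins act on, and of their partners, was also examined. Of 29 tested, the receptor gene *Lrp2* was higher (log2 2.27, adjusted p = 0.0309, edgeR) and *F7*, coagulation factor VII, lower (log2 -0.29, adjusted p = 0.0291) in *Rev-erbα*-/- livers at ZT8 (5 at an unadjusted p under 0.05, and 2 in DESeq2), and none passed it at ZT20 (5 at an unadjusted p under 0.05, and 1 in DESeq2). This is 6.90% of the list at ZT8, beside the 8.45% of all genes, and none at ZT20, beside 3.63%. With time, *Hgfac* was higher and *F3* (tissue factor), *Pros1* (protein S) and *Lrp1*, the receptor that clears serpin-protease complexes, were lower at ZT20 in wild type, and *C1rl* was higher and *Pros1* lower in *Rev-erbα*-/- livers. Those calls are 13.8% of the list in wild type and 6.90% in *Rev-erbα*-/- livers, beside 27.7% and 17.5% of all genes. Of 20 other protease inhibitors tested, *Itih1* was higher (log2 0.44, adjusted p = 0.0427) and *Kng2* lower (log2 -0.44, adjusted p = 0.0118) in *Rev-erbα*-/- livers at ZT8 (8 at an unadjusted p under 0.05, and 7 in DESeq2), and none passed at ZT20 (4 at an unadjusted p under 0.05, and 2 in DESeq2). At ZT8 that is 10% of these inhibitors, beside 8.45% of all genes. The list medians for the genotype difference lay between -0.04 and 0.06.

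The promoters of the members were searched for 5 short motifs on both strands, in RefSeq windows of 250 bases before to 50 after the start, which were at hand for 23 members with 27 start sites. AGGTCA, the core of the REV-ERB response element, occurred in 5 of the 27 windows (*Serpina11* in both, *Serpind1*, *Serpinf1* and *Serpinf2*), and in 16.3% of 32851 promoters. The overlapping windows of *Serpina11* hold the same site. None of these 4 genes was called between the genotypes. The letters of the 5 motifs do not contain one another. The glucocorticoid response element core, ACANNNTGT, occurred in 7 windows of 6 members, among them *Serpina3n* and *Serpinb8*, and in 6.85% of all promoters. Not all of these were separate occurrences, since the overlapping windows of *Serpina3f* hold 1 site and the related copies *Serpina3c*, *Serpina3f* and *Serpina3n* share the same letters. The heat-shock pair (GAANNTTC or TTCNNGAA) was in 3 windows (*Serpina3c*, *Serpina5* and *Serpinb6a*, 15.1% of all promoters), and not in that of *Serpinh1*. The E-box (CACGTG) and the D-box (TTATGTAA) were in none of the 27 windows, and in 7.15% and 0.938% of all promoters. *Serpina6* and *Serpina9* had no window, and that of *Serpina12*, printed above, held none of the 5 motifs. The upstream 250 bases of *Serpina3n* (GRCm38.p6, chr12:104406458-104406707, plus strand) are shown with the match in capitals, as the called member of the acute-phase programme.
Serpina3n: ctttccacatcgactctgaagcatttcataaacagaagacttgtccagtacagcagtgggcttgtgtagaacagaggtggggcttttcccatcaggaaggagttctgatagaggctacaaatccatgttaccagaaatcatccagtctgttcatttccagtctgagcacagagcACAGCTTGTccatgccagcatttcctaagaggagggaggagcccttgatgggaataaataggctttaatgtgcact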

How the data were processed

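Poly(A) RNA of 12 mouse livers was sequenced by the authors (reads of at most 75 bases), mapped to mm10 with TopHat and counted by gene symbol, without regard to strand, using HTSeq-count (union mode, mapping quality of at least 10) on uniquely mapped reads. The authors deposited these whole-number counts without normalization. The gene annotation they used is not given in the sources used here. Per the labels, DESeq2 1.6.3 was their test.

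Samples were grouped by genotype and time from the labels. Counts were fitted in R 4.3.3 with edgeR 4.0.16 (TMM, filterByExpr, robust quasi-likelihood, 4 group means over 12 livers), and p-values were adjusted by Benjamini-Hochberg over 14488 genes with a threshold of 0.05. CPM are TMM-scaled and, at 17641809 to 26060192 reads per library, 3 reads equal 0.115 to 0.17 CPM. Log2 values are fitted differences. The fit was tested on simulated counts. Alternatives were DESeq2 1.42.0, relative log expression (RLE) factors, other filters, 6 livers alone, a replicate block, leaving out each liver, a threshold of 0.01 and, added after seeing the data, leaving out 2 wild-type ZT8 livers. Lengths, shared windows and loop stretches come from GENCODE M21 and promoters from RefSeq GRCm38.p6.

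The members and gene lists were chosen with earlier results of these data known. Values per liver, group means or fitted differences are given for members called in any comparison, the most abundant of each clade and a list of plasma serpins. Counts are over all 32 members, of which 1 is not reported here by name or value.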

Additional observations from a re-analysis of the deposited data

Results flagged for a closer look

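*Serpinb8* was the member whose genotype difference was not the same at both times by the test of the difference itself. The difference between *Rev-erbα*-/- and wild-type livers at ZT8 minus that at ZT20 was 1.28 on the log2 scale (standard error 0.35, adjusted p = 0.0414, edgeR), from -0.11 at ZT8 and -1.39 at ZT20. All 3 *Rev-erbα*-/- livers at ZT20 (2.22 to 2.45 CPM) lay below all 3 wild-type livers (6.00 to 6.59 CPM), and the genotypes overlapped at ZT8. The result was lost in 11 of 12 fits that left out 1 liver. Groups of 3 livers were too small to look for single outlying livers by rule.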

How the results depend on the processing

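In place of 5 members called between genotypes at ZT8, 4 at ZT20, 1 in the test of the difference between times, and 12 with time in each genotype, leaving out 1 liver at a time gave 3 to 7, 2 to 5, 0 to 3, 7 to 15 (wild type) and 8 to 12 (*Rev-erbα*-/-). The lowest counts fell without wild-type replicate 2 or 3 or *Rev-erbα*-/- replicate 3 at ZT8 (3 for ZT8), without replicate 2 of either genotype at ZT20 (2 for ZT20), without wild-type replicate 2 at ZT20 (7 for time in wild type) and without *Rev-erbα*-/- replicate 1 at ZT8 (8). A threshold of 0.01 gave 3, 2, 0, 7 and 8, and DESeq2 gave 2 in the test of the difference between times. Without the 2 wild-type ZT8 livers with high *Saa1*, the log2 difference of *Serpina10* with time in wild type turned from -0.48 to 0.12. Neither value passed the threshold, and the second fit held fewer livers. With a replicate block, 0 members passed the test of the difference between times, and the counts were 4, 4, 12 and 10 otherwise. Among the calls lost were *Serpina3n* at ZT8 (adjusted p = 0.0799, edgeR) and *Serpinb8* in the test of the difference (0.0507). Also lost were *Serpinb8* with time in *Rev-erbα*-/- livers (0.0571) and *Serpina12* with time in wild type (0.0533). Same-numbered livers did not deviate together (mean r -0.01 over 18 pairs, highest 0.0738, and 2 of 12 livers correlated best with their own number). No pairing by number was thus seen over all genes, and one limited to few genes would not show in these correlations. Over the 44 gene and comparison pairs called in any setting that kept all livers or left out those 2, 700 of 815 alternative values kept their side of the threshold and their direction. The causes were not tested. Depth limits *Serpinb1a*, *Serpina5* and *Serpina3h*, with as few as 7 to 10 reads in a liver.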
